A study of Mus musculus with 5 samples.

Results

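Runx3 occupancy and H3K4me1 marking in IL-2-activated NK cells (NKC) are described here at 4 genes for STAT transcription factors, Stat2, Stat3, Stat4 and Stat6, of 22350 protein-coding genes. A peak was taken as a member when it overlapped the gene or its 20 kb flanks, which gave 13 of 11676 Runx3 peaks and 35 of 34204 H3K4me1 peaks. The genes were chosen by family. The cells were splenic NKC of ICR mice, enriched by negative selection, and kept for 7 days in 1000 units/ml of human recombinant IL-2. The authors' methods also give sorting of the enriched NKC for DX5+ cells. Runx3 was precipitated with a polyclonal antibody made in house in 2 libraries and H3K4me1 with a monoclonal antibody in 1 library, and non-immune rabbit serum (NIS) gave the 2 control libraries. All 5 libraries came from this single condition. The 2 Runx3 libraries had been joined before peaks were called, so no value below has a replicate error and no condition could be compared with another.

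A peak is a stretch of the genome where reads from the precipitated DNA piled up above the control. H3K4me1, a histone mark, is found at enhancers and around active promoters. STAT proteins wait in the cytoplasm until a cytokine receptor's Janus kinase (JAK) phosphorylates them. They then pair up, enter the nucleus and bind DNA, often at gamma-activated sites (GAS). Stat2 acts with Irf9 after type I interferon, Stat3 acts after IL-6, IL-10 and IL-21, Stat4 carries the IL-12 signal that drives interferon gamma production in NKC, and Stat6 carries the IL-4 and IL-13 signal.

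The labelled cell type was checked against marker genes, with the limit that peaks show occupancy and marking and not expression. The labels describe the cultured cells as entirely NKp46+, the product of Ncr1. All 7 NKC markers (Ncr1, Klrb1c, Itga2, Eomes, Tbx21, Prf1 and Gzmb) had peaks of both kinds, with 2 to 5 Runx3 peaks each, where 41.1% of all protein-coding genes had a Runx3 peak and 51.1% an H3K4me1 peak in such a window. Markers of other lineages were not empty. Cd3e and Cd4 of 3 T cell markers and Csf1r of 3 myeloid markers had Runx3 peaks, whereas Cd8a and Lyz2 had neither kind. Cd14, also a myeloid marker, had 4 H3K4me1 peaks and no Runx3 peak. The part of other cells in the peaks at the 4 STAT genes was not tested.

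The sequences that hold the motif arrangements described below are shown first. They are the middle 300 bp of 3 Runx3 peaks, read from the mm9 reference genome (NCBIM37), which is not that of ICR mice, except that the Stat2 promoter sequence stops at the base before the transcription start site (TSS) and is 275 bp long. Capitals mark the RUNX motif (TGTGGT and its variants spelled TGTGGC, with one change, TGCGGT, with the other, and TGCGGC, with both), the AP-1 motif (TGACTCA, which reads TGAGTCA on the other strand) and the T-box motif (AGGTGTGA, the kind of site read by T-bet and Eomes). Both strands were searched, and a motif on the minus strand appears here as its reverse complement. The upstream Stat2 peak is shown for its RUNX and AP-1 motifs, the promoter peak for its single RUNX motif, and the intronic Stat6 peak for a T-box motif and a RUNX motif in a coding exon.
Upstream Stat2 peak, chr10:127693290-127693589, plus strand: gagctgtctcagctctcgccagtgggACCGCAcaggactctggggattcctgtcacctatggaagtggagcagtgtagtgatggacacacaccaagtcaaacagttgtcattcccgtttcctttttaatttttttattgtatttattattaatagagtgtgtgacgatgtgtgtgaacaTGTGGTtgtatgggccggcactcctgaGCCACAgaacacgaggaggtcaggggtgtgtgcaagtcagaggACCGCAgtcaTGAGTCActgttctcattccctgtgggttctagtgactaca
Stat2 promoter peak, chr10:127707354-127707628, plus strand: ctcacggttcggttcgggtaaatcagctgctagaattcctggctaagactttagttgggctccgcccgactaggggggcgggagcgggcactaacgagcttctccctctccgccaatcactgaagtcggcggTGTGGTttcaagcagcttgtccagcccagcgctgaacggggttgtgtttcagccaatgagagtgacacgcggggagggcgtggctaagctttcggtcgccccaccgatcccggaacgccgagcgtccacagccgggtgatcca
Intronic Stat6 peak, chr10:127092129-127092428, plus strand: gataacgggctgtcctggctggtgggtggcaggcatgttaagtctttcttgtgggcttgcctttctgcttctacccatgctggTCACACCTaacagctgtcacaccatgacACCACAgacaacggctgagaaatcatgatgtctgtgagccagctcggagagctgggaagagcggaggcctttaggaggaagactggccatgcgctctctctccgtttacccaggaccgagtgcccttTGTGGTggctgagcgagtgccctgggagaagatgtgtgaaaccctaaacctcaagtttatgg

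All 4 genes had peaks of both kinds. Stat4 and Stat6 had 4 Runx3 peaks each, Stat2 had 3 and Stat3 had 2. Over all protein-coding genes, Runx3 peaks were present in 41.1% and H3K4me1 peaks in 51.1% of such windows, and the median gene had 0 and 1. As many as 4 Runx3 peaks were found at 3.23% of genes, 3 at 7.36% and 2 at 18.1%. H3K4me1 peaks ran from 4 at Stat2 and 6 at Stat3 to 11 at Stat4 and 14 at Stat6. Counts that high were found at 20.6%, 12.1%, 3.74% and 2.19% of genes, respectively.

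The windows differed in length, from 58 kb for Stat6 to 160 kb for Stat4, against a median of 55.4 kb over all genes. Per 100 kb, Stat6 had 6.9 Runx3 peaks, Stat2 4.82, Stat4 2.5 and Stat3 2.12. A density that high was reached by 1.28% of genes for Stat6, 3.74% for Stat2, 12.9% for Stat4 and 19.8% for Stat3. Stat4 thus shared the highest count with Stat6 but ranked behind Stat2 by density. H3K4me1 peaks covered 21.1% of the Stat6 window, which 1.28% of genes matched, and 4.25% to 4.81% of the windows of the other genes. Stat6 therefore stood first by Runx3 density, by H3K4me1 count and by H3K4me1 cover, and tied with Stat4 by Runx3 count. These ranks are of windows, and 7 of the 14 H3K4me1 peaks in the Stat6 window touched the gene itself. Others lay within the neighbouring genes Nab2 and Tmem194.

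**Figure D1:**
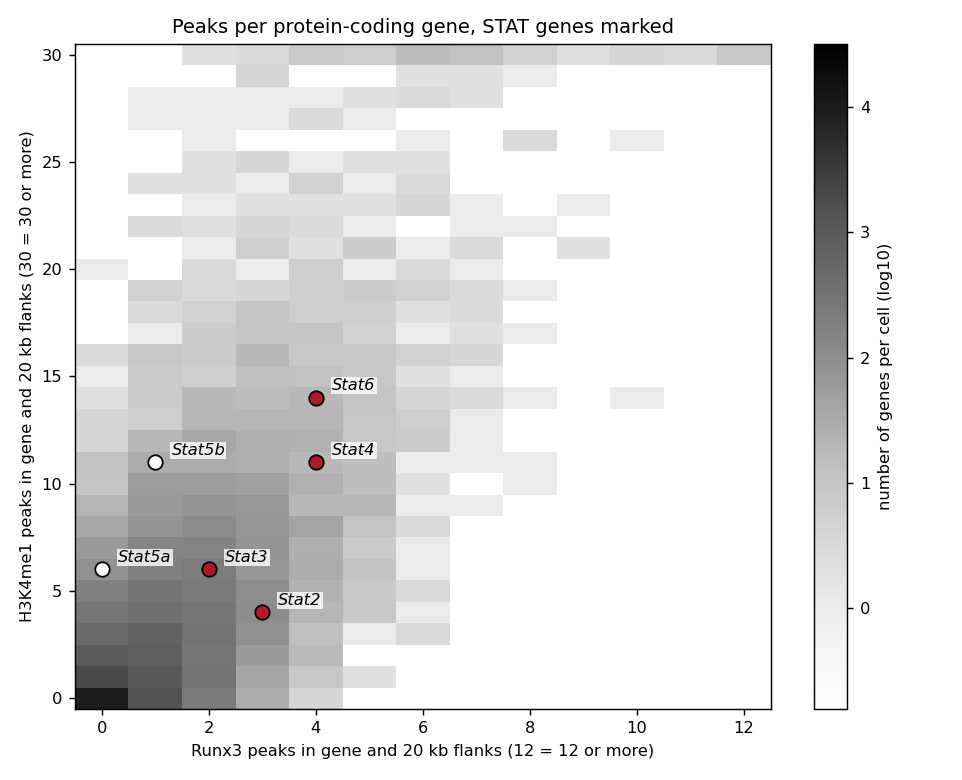
Each protein-coding gene is placed by its number of Runx3 peaks (x axis) and H3K4me1 peaks (y axis) in the gene and its 20 kb flanks, with grey showing how many genes share a position on a log10 scale. Red points are Stat2, Stat3, Stat4 and Stat6 and white points Stat5a and Stat5b, with Stat4 and Stat6 at 4 Runx3 peaks and Stat5a at 0.

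**Figure D2:**
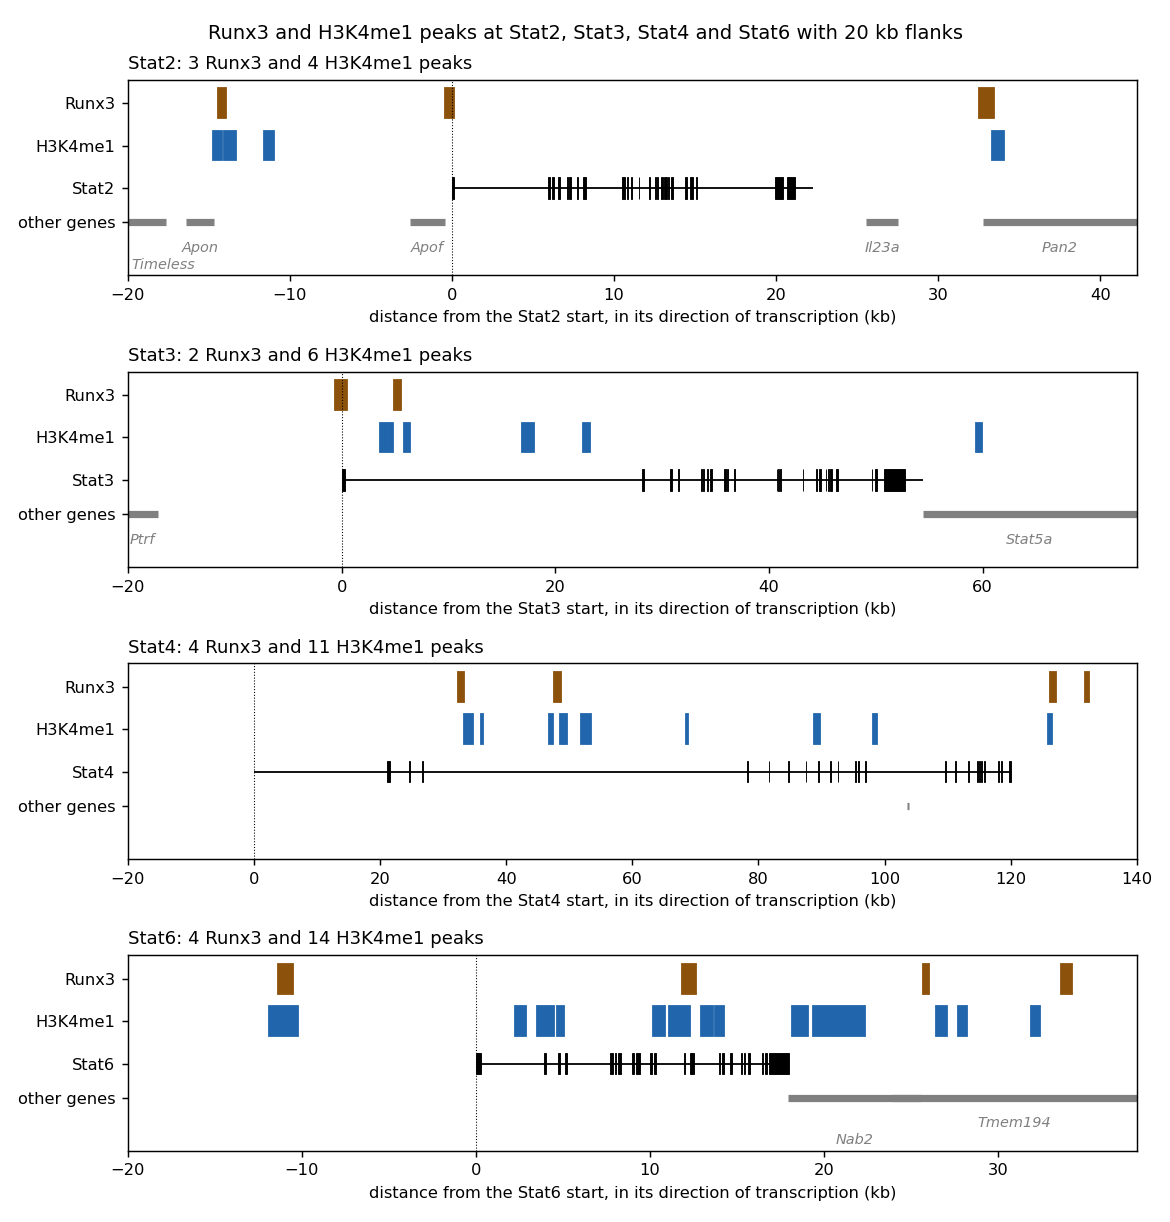
The x axis is the distance in kb from the gene's most upstream TSS, in its direction of transcription, over the gene and 20 kb to either side. Brown bars are Runx3 peaks, blue bars H3K4me1 peaks, black boxes exons of the longest coding transcript on a line for the whole gene, and grey bars other protein-coding genes, not all of which are drawn. Runx3 peaks lay over the TSS of Stat2 and Stat3 and not over that of Stat4 or Stat6, whose nearest H3K4me1 peaks began 33236 bp and 2233 bp away.

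Stat2 (ENSMUSG00000040033, chr10:127707629-127729905, plus strand, 25 exons in its longest coding transcript) had 3 Runx3 peaks, of which 1 touched the gene. That peak, chr10:127707227-127707780, was 554 bp wide and covered the TSS, with its centre 126 bp upstream. No H3K4me1 peak overlapped it, and the nearest began 10846 bp from its centre. It held the single RUNX motif TGTGGT printed above, 14 bp from the centre, with 37 CpG sites and 58.5% GC. The gene body itself held no H3K4me1 peak, as at 69% of protein-coding genes.

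The other Runx3 peaks of Stat2 lay in its flanks. The upstream peak, chr10:127693166-127693712, had its centre 14190 bp upstream of the Stat2 TSS and 2252 bp downstream of the TSS of Apon, an apolipoprotein gene. It was covered over 77.1% of its width by a pair of H3K4me1 peaks, whose edges lay 23 bp and 103 bp from its centre, so that the centre itself was unmarked. It held 4 RUNX motifs, all in the sequence printed above, and 2 AP-1 motifs, of which 1 lay 4 bp from a RUNX motif. The downstream peak, chr10:127740143-127741079, lay over the start of Pan2, which encodes a subunit of a poly(A) nuclease, with its centre 220 bp inside that gene. H3K4me1 covered 13.9% of it, and it held 1 RUNX motif and 2 GAS motifs (TTCNNNGAA), 60 bp and 120 bp from the RUNX motif. At Stat2, then, occupancy at the promoter was without H3K4me1, and the marked peaks were nearer to the starts of other genes.

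Stat3 (ENSMUSG00000004040, chr11:100746412-100800854, minus strand, 24 exons) had both of its Runx3 peaks in or over the gene. The promoter peak, chr11:100800337-100801427, was 1091 bp wide, a width reached by 8.55% of all Runx3 peaks, with its centre 28 bp upstream of the TSS. It held no RUNX motif in any of the 4 spellings, 4 ETS motifs (on either strand, AGGAAA, the like word ending in G, AGGAAG, and those starting with C, CGGAAA and its companion CGGAAG), 67 CpG sites and 61% GC. The second peak, chr11:100795306-100795975, lay in intron 1, 5214 bp downstream of the TSS. It held 2 TGTGGT motifs, had the lowest GC content of the 13 peaks, 39.4%, and overlapped no H3K4me1 peak.

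H3K4me1 nevertheless flanked the intronic Stat3 peak on both sides, with edges 278 bp and 33 bp from the ends of the Runx3 peak. When H3K4me1 peaks closer than 1 kb were joined, these formed a stretch of 2.83 kb that held the whole Runx3 peak. The other H3K4me1 peaks of Stat3 were farther off, 2 in intron 1 and 1 beyond the end of the gene, within the neighbouring gene Stat5a. H3K4me1 covered 6.58% of the gene body, as much as at 13.7% of genes. Stat3 was the only one of the 4 genes without an overlap between the 2 kinds of peak, whereas such an overlap was found in the windows of 20.5% of all protein-coding genes.

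Stat4 (ENSMUSG00000062939, chr1:52043992-52164032, plus strand, 24 exons) was the longest gene, 120 kb, and had no Runx3 peak over either of its annotated TSSs. Both Runx3 peaks within the gene lay in intron 3. The first, chr1:52076399-52077340, had its centre 32877 bp from the upstream TSS and 11781 bp from the downstream TSS, and the second, chr1:52091587-52092747, 48175 bp and 27079 bp. These distal peaks were the richest in ETS motifs, with 7 each, and each held 4 RUNX motifs. In the first, all 4 were TGTGGT, and an ETS motif lay 10 bp from the nearest of them. The second, which at 1161 bp was the widest of the 13, also held an AP-1 motif and a T-box motif, the latter 8 bp from a RUNX motif.

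H3K4me1 at Stat4 was spread along the gene body, with 10 of 11 peaks touching it and 8 of the 11 in intron 3. They covered 5.84% of the gene. Both intronic Runx3 peaks overlapped H3K4me1 at their edges, over 12% and 24.4% of their width, with the centre unmarked. The second lay between H3K4me1 peaks whose edges were 740 bp and 298 bp from its centre. The first had its nearest H3K4me1 edge 359 bp away on one side and none within 2 kb on the other. The gene's upstream start was bare, as the nearest H3K4me1 edge lay 33236 bp downstream of the upstream TSS. The longest coding transcript starts at the downstream TSS, 21096 bp inside the gene. No H3K4me1 peak lay over that TSS either, but it was closer to the marked stretch of intron 3.

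The remaining 2 Runx3 peaks of the Stat4 window lay downstream of the gene. The first, chr1:52170231-52171170, was 940 bp wide, and H3K4me1 covered 38.5% of it. It held 3 RUNX motifs, all TGCGGC, and a GAS motif, TTCCCAGAA, 9 bp from the nearest of them. The second had no H3K4me1 overlap and held 2 TGCGGT motifs. The downstream peaks thus differed from the intronic pair in the spelling of their motifs, since TGTGGT was in both intronic peaks and in neither of these.

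Stat6 (ENSMUSG00000002147, chr10:127080042-127098013, plus strand, 22 exons) was the shortest gene, 18 kb, and had the most H3K4me1. The mark covered 28% of the gene body, as much as at 3.02% of genes. Joined over gaps under 1 kb, its 14 peaks fell into 6 stretches. The widest, 4.18 kb, lay just past the gene's end, within the neighbouring gene Nab2, with 3 peaks and no Runx3 peak. The next, 4.04 kb around introns 11 to 13, had 4 peaks and 1 Runx3 peak. A further stretch of 2.79 kb began 2233 bp inside the gene and had no Runx3 peak.

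The intronic Runx3 peak of Stat6, chr10:127091853-127092703, had its centre in intron 12 and within H3K4me1, which covered 57.2% of it. It held 3 TGTGGT motifs and a T-box motif 20 bp from the nearest of them. Its middle 300 bp ran 76 bp into the following coding exon, which held 1 of the RUNX motifs printed above. The nearest annotated TSS was that of a short Stat6 transcript, Stat6-004, 1539 bp downstream. The upstream peak, chr10:127068676-127069556, was the only one of the 13 to lie wholly inside H3K4me1, in a peak of 1654 bp, a width that 5.95% of H3K4me1 peaks reached. Its centre lay 10926 bp upstream of the Stat6 TSS and 10912 bp upstream of that of Lrp1, a lipoprotein receptor gene, so distance does not assign it to either. It held 2 TGTGGT motifs, 1 of them a single bp from an ETS motif.

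The downstream Runx3 peaks of Stat6 lay close to TSSs of other genes and carried no H3K4me1. The peak chr10:127105723-127106060 lay 267 bp upstream of the TSS of Nab2, a corepressor of EGR factors. At 338 bp it was narrower than nearly all others, as 99.2% of Runx3 peaks were at least as wide, and it held no RUNX motif. The peak chr10:127113652-127114300 covered a TSS inside Tmem194, downstream of that gene's start, and a TSS of the non-coding Gm16230. Its nearest start of a protein-coding gene was that of Nab2, 8352 bp away. It held 4 RUNX motifs and 50 CpG sites.

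Across the 4 genes, 4 Runx3 peaks were centred in introns, 4 upstream and 5 downstream of the gene, and 0 in exons. The nearest start of a protein-coding gene was that of another gene for 8 of the 13, and 10 also fell in the window of another protein-coding gene. No like count was made at other genes, so whether these are unusual was not tested. A Runx3 peak covered the gene's most upstream TSS at 2 of the 4 genes, Stat2 and Stat3, and at 9.36% of all protein-coding genes. Centres lay within 1 kb of an annotated TSS in 6 of 13 peaks (46.2%, 95% Wilson interval 23.2% to 70.9%), against 25.3% of all Runx3 peaks. Stat2 and Stat3 supplied 2 of these 6 TSSs, and Pan2, Nab2 and Tmem194 supplied 3, that of Tmem194 being internal to the gene. With only the most upstream TSSs of protein-coding genes, 5 peaks lay within 1 kb. The 13 peaks were chosen for lying in a gene or its flanks. All Runx3 peaks, by contrast, include some with centres up to 635752 bp from a TSS. That choice by itself favours peaks near a TSS, so the 46.2% and 25.3% are not on equal terms. Whether the 13 lie nearer to TSSs than peaks in other genes' windows was not tested.

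H3K4me1 overlapped 7 of the 13 Runx3 peaks (53.8%, interval 29.1% to 76.8%) and 48.4% of all Runx3 peaks. By position, 1 of 6 peaks within 1 kb of a TSS overlapped the mark, compared with 20.5% of all such peaks, and 6 of 7 peaks farther away, compared with 57.8%. The overlap was mostly at the edges. The centre of 2 peaks lay in H3K4me1, both at Stat6 (15.4%, interval 4.33% to 42.2%, against 28.2% overall), and 3 had their centre between H3K4me1 peaks within 2 kb on both sides, 1 each at Stat2, Stat3 and Stat4 (overall 13.9%). Each of these intervals for H3K4me1 holds the share over all peaks. The intervals treat the 13 peaks as independent, though peaks of a gene share its window, and a departure in H3K4me1 overlap was not tested. Seen from the mark, 8 of 35 H3K4me1 peaks overlapped Runx3 (22.9%, interval 12.1% to 39%, against 19.9% of all), 9 lay within 1 kb of a Runx3 peak without touching it and 18 were farther away.

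**Figure D3:**
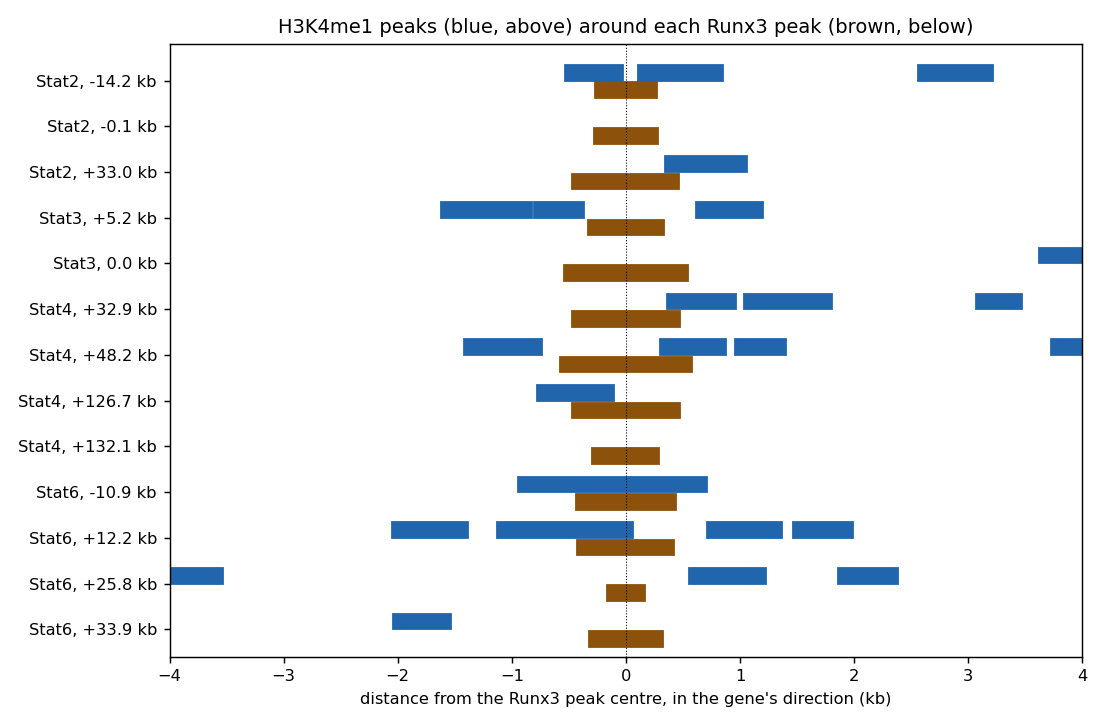
Each line is 1 of the 13 Runx3 peaks, named by gene and by the distance of its centre from the gene's TSS, with the Runx3 peak in brown and H3K4me1 peaks in blue. The x axis is the distance in kb from the centre of the Runx3 peak, in the gene's direction of transcription. H3K4me1 crosses the centre in 2 peaks, both of Stat6, and flanks an unmarked centre on both sides within 2 kb in 3.

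In sequence, 11 of the 13 Runx3 peaks held a RUNX motif (84.6%, interval 57.8% to 95.7%). The share over all Runx3 peaks was 96%, just above the upper limit of that interval. The interval treats peaks at the same gene as independent, so a shortfall was not tested. The peaks without a RUNX motif were 2 promoter peaks, those of Stat3 and Nab2. In the middle 300 bp the motif was in 9 of 13, against 86.4%. ETS motifs were in all 13 peaks, against 91.4%, and in the middle 300 bp of 10, against 71.9%. Peaks held 0 to 4 RUNX motifs with a median of 2, where the median of all peaks was 3.

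The spelling of the motif varied with the peak. The commonest, TGTGGT, was in 9 of 13 peaks (69.2%, against 75.9% of all). TGTGGC was in 3 (23.1%, interval 8.18% to 50.3%), below the 57.7% of all peaks, and that interval does not hold the share over all peaks. Many properties were compared without correction, so some such intervals can miss by counting error alone. Whole-peak shares also depend on width, since a wider peak has more room for a motif. The 13 peaks were the wider, with a median of 851 bp against 704 bp for all, which would raise their shares. TGCGGT was in 3, against 21.8%, and TGCGGC in 2, against 19.2%. TGTGGT was in 6 of 7 peaks more than 1 kb from a TSS (83.7% of all such peaks) and in 3 of 6 nearer ones (52.7%). To compare them, 40 bp around the RUNX motif nearest to the peak's centre are printed on the strand that reads the motif, with the motif in capitals, for peaks not shown above. The first 5 hold TGTGGT, and the last, at Tmem194, ends in a C.
Stat3 intron 1, chr11:100795604-100795643, minus strand: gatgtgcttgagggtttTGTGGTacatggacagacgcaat
Stat4 intron 3, first peak, chr1:52076697-52076736, plus strand: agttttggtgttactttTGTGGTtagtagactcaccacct
Stat4 intron 3, second peak, chr1:52092031-52092070, minus strand: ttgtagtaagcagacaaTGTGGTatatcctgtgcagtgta
Stat6 upstream, chr10:127069169-127069208, minus strand: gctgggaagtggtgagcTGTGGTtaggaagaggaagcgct
Pan2 start, downstream of Stat2, chr10:127740879-127740918, plus strand: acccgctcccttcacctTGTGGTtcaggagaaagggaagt
Tmem194, downstream of Stat6, chr10:127113977-127114016, plus strand: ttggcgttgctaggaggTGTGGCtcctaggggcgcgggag

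**Figure D4:**
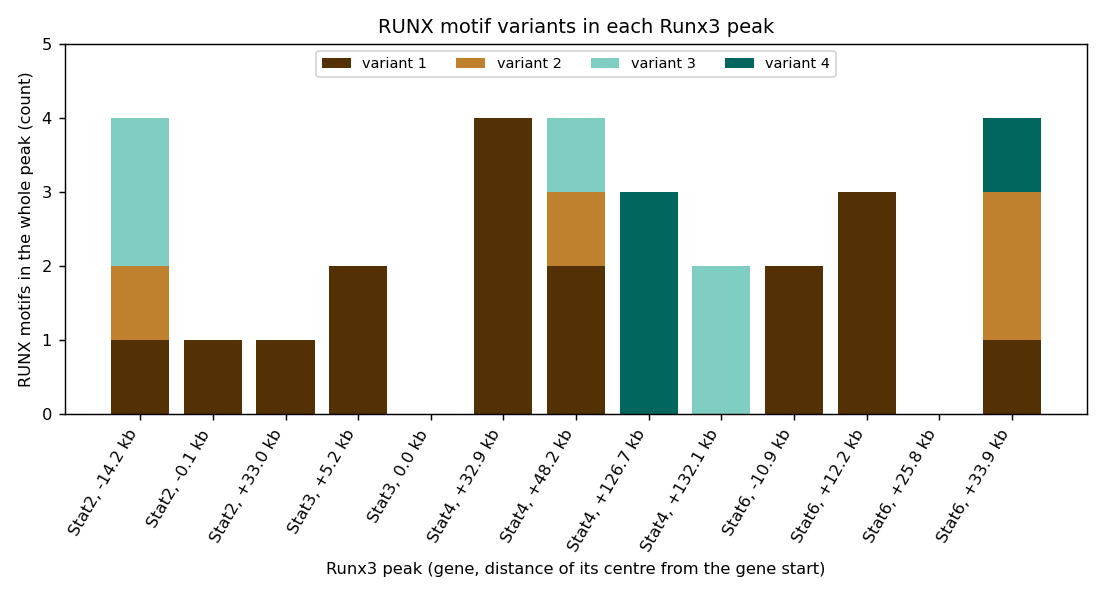
The y axis counts RUNX motifs in the whole of each of the 13 Runx3 peaks, which are named on the x axis by gene and by the distance of the centre from the gene's TSS. Colours are the spellings, where variant 1 is TGTGGT, variant 2 TGTGGC, variant 3 TGCGGT and variant 4 TGCGGC, and the Stat3 promoter and Nab2 promoter peaks hold 0.

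AP-1, GAS and T-box motifs were searched in the same way. AP-1 was in 2 of 13 peaks, at Stat2 and Stat4, against 26.2% of all peaks, and in the middle 300 bp of 1, against 16.6%. The GAS motif, the kind of site that STAT proteins bind, was in 3 peaks (23.1%, interval 8.18% to 50.3%), downstream of Stat2, in Stat4 intron 3 and downstream of Stat4, against 21.6% of all peaks. In the middle 300 bp it was in 1, against 9.76%. The form with a longer spacer, TTCNNNNGAA, was in 5 peaks (38.5%, interval 17.7% to 64.5%), above the 16.7% of all peaks, and in the middle 300 bp of 1, against 6.59%. The limits of many comparisons and of peak width given above apply here too. A match of this form, downstream of Stat2, overlapped the RUNX motif by a base, and GAS matches can share GGAA with ETS motifs. The T-box motif was in 2 peaks, in Stat4 intron 3 and Stat6 intron 12, against 5.51%, and in the middle 300 bp of 1, against 3.08%.

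Motifs were called a module when 50 bp or less lay between them. RUNX motifs formed a module with each other in 6 of 13 peaks, against 45.6% of all Runx3 peaks, ETS with RUNX in 7, against 59.2%, and AP-1 with RUNX in 1, against 12.7%. The ETS with RUNX modules were in all 4 peaks of the Stat4 window and in 3 of Stat6, and none was at Stat2 or Stat3. A match gives the letters only and does not show which protein bound there.

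The promoters themselves, taken as 250 bp before to 50 bp from the gene's most upstream TSS, held RUNX motifs at 3 of the 4 genes. At Stat4 this is not the TSS of the longest coding transcript. They were in those of Stat2 (1), Stat4 (2) and Stat6 (1) and not in that of Stat3, whereas Runx3 peaks lay over Stat2 and Stat3. Of all 22350 such promoters, 45.3% held a RUNX motif. CpG sites numbered 27 at Stat2 and 15 at Stat3, where Runx3 peaks were found, and 2 at Stat4 and 8 at Stat6, against a median of 11.

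The wider JAK-STAT pathway was counted from a list of 50 genes. Runx3 peaks were in the windows of 35 and H3K4me1 peaks in those of 41. Leaving out the 4 members, 31 of 46 (67.4%) had Runx3 peaks and 37 (80.4%) had H3K4me1 peaks, beside 41.1% and 51.1% of all protein-coding genes. The list was chosen with earlier results of these data known, and window lengths were not matched, so the shares are descriptive only. Neighbours in the list can share peaks, as the 14 receptor genes did, with 28 distinct peaks of 32 counted by gene, so genes are not independent counts. Within the STAT family, Stat5a, which adjoins Stat3, had 0 Runx3 and 6 H3K4me1 peaks, and Stat5b had 1 and 11.

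Upstream of the STAT proteins, Runx3 peaks were at 3 of 4 kinases. Jak1 had 4, Jak3 2 and Jak2 1, and Tyk2, which serves the type I interferon and IL-12 receptors, had 0 beside 12 H3K4me1 peaks. Among 14 receptor genes 10 had Runx3 peaks. The most were at Il21r, 6, all overlapping H3K4me1, followed by Il4ra, the receptor upstream of Stat6, with 5. Il12rb1 and Il12rb2, which signal to Stat4, had 4 and 3, and Ifnar1 and Ifnar2, which signal to Stat2, had 2 and 4. None was found at Il13ra1, Il2rg, Il6st or Il27ra.

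Irf9, the DNA-binding partner of Stat2, had 1 Runx3 and 3 H3K4me1 peaks. Of 11 inhibitors of the pathway 6 had Runx3 peaks, the most at Socs1, 5, and Cish, 3, which are feedback inhibitors, and none at Socs2 or Pias1 to Pias4. Of 14 genes known as STAT targets 10 had Runx3 peaks, the most at the survival gene Mcl1, 5. Those with none were Isg15, Ifit1, Oas1a and Irf7, all interferon-induced, whereas interferon-induced Mx1 had 2. Counts of 4, as at Stat4 and Stat6, were therefore within the range of the pathway, 0 to 6.

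**Figure D5:**
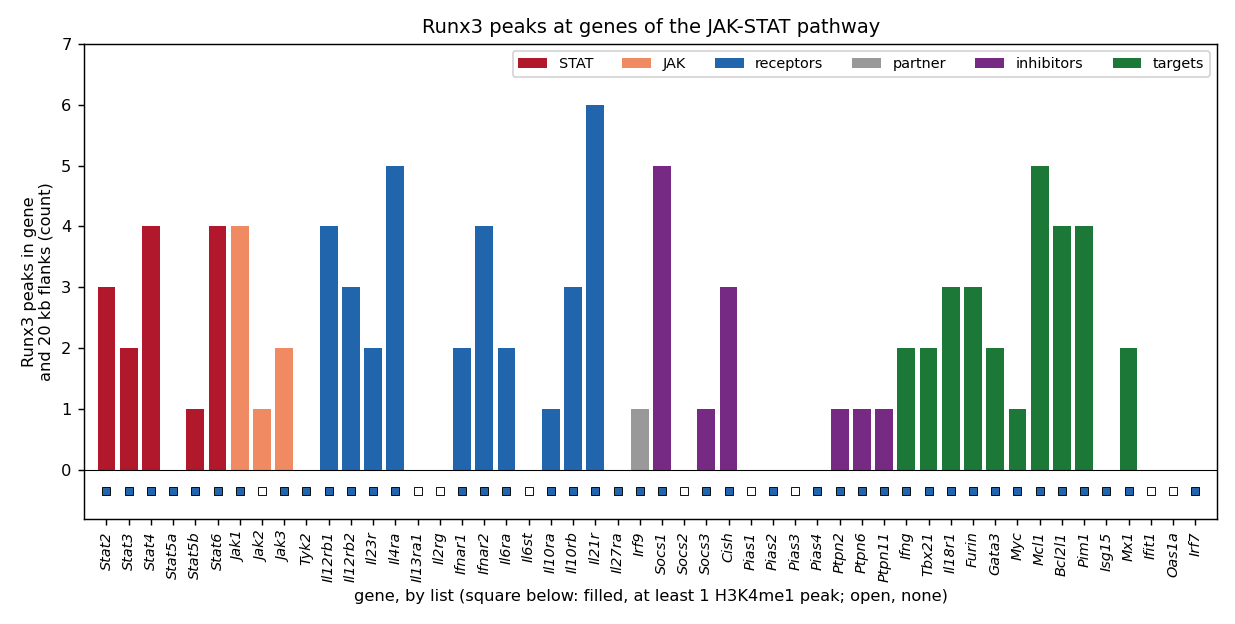
The y axis counts Runx3 peaks in each of the 50 genes and its 20 kb flanks, coloured by list, with a filled square below where the gene had at least 1 H3K4me1 peak and an open square where it had none. Stat4 and Stat6 stand at 4, under Il21r at 6 and Il4ra, Socs1 and Mcl1 at 5.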

How the data were processed

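ChIP-seq peaks of IL-2-activated splenic NKC were taken from 2 deposited lists, which give only peak positions in bp (unit other), with no height, p-value or value per library. Per the authors, reads were placed on mm9 by ELAND, uniquely mapped reads were kept, and MACS called the peaks. They joined the reads of each antibody, used NIS as control and scaled the larger dataset to the smaller. Library depth cannot be read from these files. The authors do give numbers of uniquely mapped reads per antibody in these cells, fewer for H3K4me1 than for Runx3. The study's other cells and its microarrays were not used here.

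Starts, deposited counting from 0, are given from 1. Genes, exons and TSSs came from GENCODE M1, which uses this build. A gene's window was the gene with 20 kb to either side, and an overlap needed 1 bp. Distances ran from the peak's centre to the nearest TSS of any transcript, and the gene's start is its most upstream TSS. Motifs were exact matches. Wilson intervals are at 95% and cover counting error only. No test was made, since there was 1 condition and no value per library. The counting and motif steps were tested on simulated data. The genes named were the members, the genes with the nearest TSS, the STAT and JAK genes and, per list, those with the most and with no Runx3 peak. Some listed genes and sequences are not reported here, and the B cell markers were left out for that reason. The other receptors, Cish and Mx1 were named after their values were seen. The members and all lists were chosen with earlier results of these data known. Alternatives were flanks of 5, 10 and 50 kb, joined peaks, stricter and looser overlap, other TSS and gene sets, and the middle 300 or 200 bp. Calculations used python 3.11.15, numpy 2.4.6, pysam 0.24.0, samtools 1.23.1 and matplotlib 3.10.9.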

Additional observations from a re-analysis of the deposited data

How the results depend on the processing

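Counts were held to 1.5 times their value and shares of genes to their counting interval, and by these limits 12 of 21 alternative settings kept the value and 9 moved it. The 13 Runx3 peaks became 8 with 10 kb flanks and 6 with 5 kb flanks, and 14 with 50 kb. The 35 H3K4me1 peaks became 22 when those closer than 1 kb were joined. Of the 7 Runx3 peaks that overlapped H3K4me1, 3 were covered over at least 50% of their width and 2 had their centre inside the mark. The share of genes with Runx3 peaks, 41.1%, became 32.9% over all annotated genes and 28.8% with 5 kb flanks, and that with H3K4me1 peaks, 51.1%, became 41.9% and 39.8%. No paired analysis was possible because the Runx3 list joins its libraries, and no library could be left out for the same reason. Depth and peak height set which weak peaks are listed, and neither is in the lists.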

Other observations

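The peaks at each gene fell differently between gene body and flanks. Within the gene itself Stat2 had 1 Runx3 and 0 H3K4me1 peaks, Stat3 2 and 5, Stat4 2 and 10, and Stat6 1 and 7. With 50 kb flanks Stat3 gained H3K4me1 peaks, from 6 to 12, and no Runx3 peak, and Stat6 gained 1 Runx3 and 2 H3K4me1 peaks. Stat2 and Stat4 gained none of either kind beyond 20 kb.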
